A study of Mus musculus with 6 samples.

Results

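ATP-binding cassette (ABC) transporters are membrane pumps that use ATP to move lipids, bile constituents, drugs, metals and peptides across membranes. The genes described here are those on the array whose RefSeq symbol begins with Abca, Abcb, Abcc, Abcd or Abcg followed by a number, pseudogenes excluded. There were 46 such genes among the 22911 named genes on the array, covered by 73 of its 56605 probes. In this count 26 genes had 1 probe and 20 had more, up to 5. By known role, 12 genes were grouped as sterol and lipid transporters, 5 as bile transporters, 9 as drug efflux pumps, 3 as peroxisomal transporters, 6 as mitochondrial or lysosomal transporters and 11 as others. Of the 46 genes, 36 had a signal that could be tested, among 14170 genes tested on the array.

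In the liver these pumps work at several membranes. At the canalicular membrane, which faces the bile, they secrete bile acids, phospholipid, sterols and conjugated drugs, and at the membrane facing the blood they load cholesterol onto lipoproteins and return organic anions to the circulation. In the peroxisome membrane they carry fatty acyl-CoAs inward for β-oxidation. Several are transcribed under nuclear receptors that sense oxysterols, bile acids, foreign compounds or fatty acids.

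The livers came from male mice with a liver-specific knockout of Elovl6 (LKO, n = 3) and from control mice whose sample names carry the word Flox (n = 3). Elovl6 is the microsomal enzyme that elongates palmitate to stearate. Both groups ate high-sucrose chow over 14 days, and food was withdrawn 4 hours before tissue collection. RNA of 1 liver per array was hybridised to one-colour Agilent mouse arrays, so that each value below is from 1 mouse. The driver that removed the gene, the strain and the age of the mice are not given in the sources used here, and neither group was fed another diet.

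Values below are processed signals scaled so that the 75th percentile of each array is 100, and they compare mice for 1 probe, not probes or genes with each other. Between 52.1% and 56.6% of the 59305 spots per array were well above background, and 0 were saturated. All arrays came from 1 slide and 1 scan, with LKO replicates 2 and 3 in the second row of the slide and the other 4 arrays in the first. Elovl6 had levels of 22.8, 33.4 and 36.4 in the LKO mice, against 2133, 4299 and 2281 in the controls. It was 91.0-fold lower in LKO livers (log2 difference -6.51 ± 0.30, SE, limma adjusted p = 0.00279). Over all genes, 2 of 14170 (0.0141%) passed an adjusted p of 0.05 by limma, and 1582 (11.2%) had an unadjusted p under 0.05.

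None of the 36 tested ABC transporters passed the adjusted threshold by limma. At an unadjusted p under 0.05 there were 5 of 36 (13.9%), close to the 11.2% of all genes. Of these, Abcb1b and Abcg5 had higher values in LKO livers (2 of 36, beside 5.56% of all genes) and Abcd2, Abcd3 and Abcb9 had lower values (3 of 36, beside 5.6% of all genes). The LKO and control mice did not overlap for 6 of 36 members (16.7%), beside 17.3% of all genes. LKO mice lay above all controls for Abcb1b and Abcg5, where the share of all genes is 8.11%, and below all controls for Abcd2, Abcd3, Abcb8 and Abcb9, where it is 9.21%. These shares are near those of the whole array, so the counts say nothing particular about the family.

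The plot of log2 differences by role group shows the range. The difference was above 0 for 17 of 36 members (47.2%), beside 50.8% of all genes. The median difference was -0.05 on the log2 scale for the members and 0.00 for all genes, and the median size of a difference, whatever its sign, was 0.14 for the members and 0.11 for all genes. Members ranged from -0.63 for Abcd2 to 1.09 for Abcb1b. In 23 of 36 members the difference was smaller than 0.2 on the log2 scale, beside 10212 of the 14170 genes tested. It was smaller than 0.5 in 32 of 36 members, beside 13340 of the 14170 genes. For 33 of 36 members (91.7%) the 95% interval of the difference lay wholly within a 2-fold change in either direction, beside 92.9% of all genes, so that larger differences than that lie outside the interval for most of the family.

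**Figure D1:**
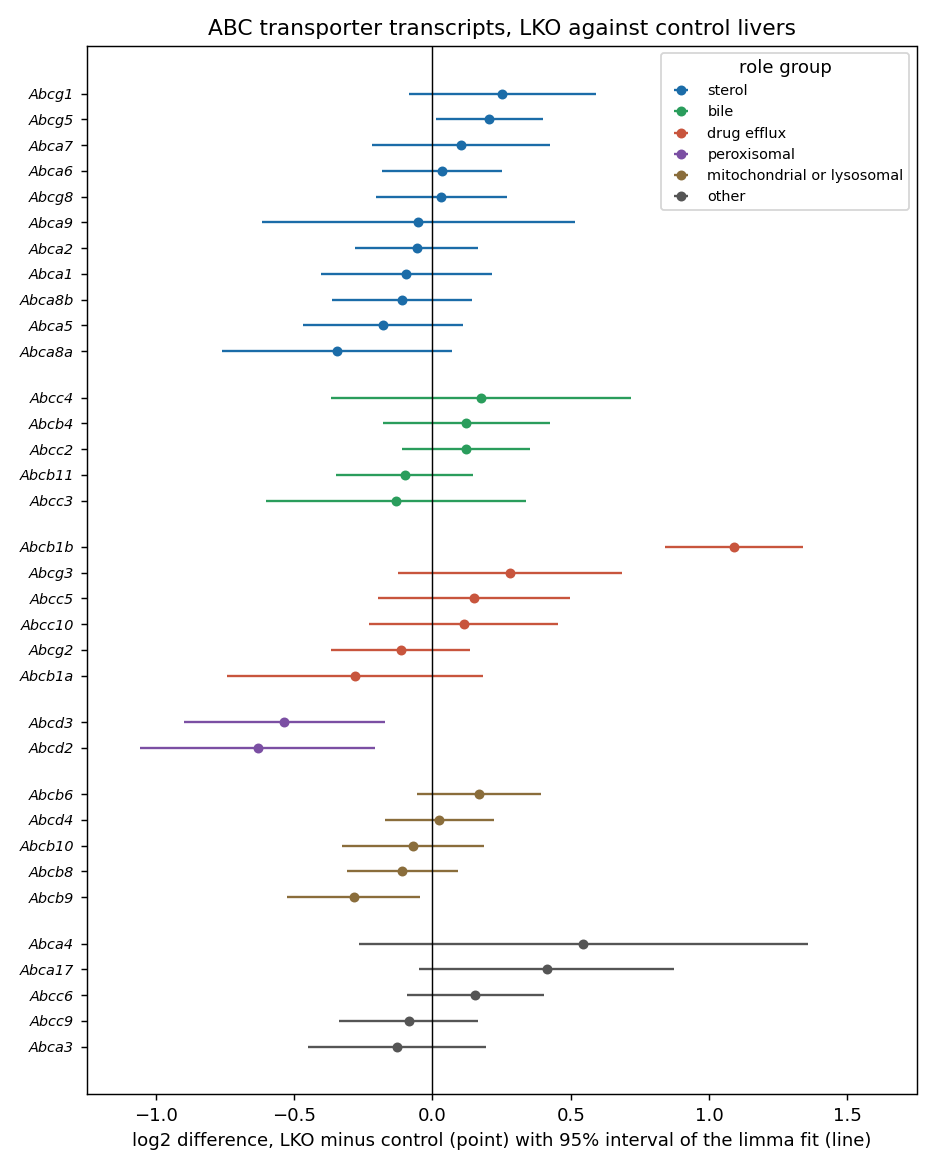
Log2 difference of the tested ABC transporters reported here, LKO minus control, by role group. Points are the limma estimates and lines their 95% intervals (n = 3 mice per group). Abcb1b lies highest at 1.09 (0.38 under normexp correction), the peroxisomal Abcd2 and Abcd3 lie at -0.63 and -0.54, and the 5 bile transporters lie between -0.13 and 0.17.

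Because the tissue is whole liver, fewer cells of a type and less RNA per cell cannot be told apart in any of these values. Hepatocyte markers made up a summed level of 544920 to 571802 in LKO and 515320 to 537408 in control livers, with 9 of 10 higher in LKO. For Kupffer cells and macrophages, 13 of 13 markers were higher in LKO (summed level 12369 to 15007 in LKO and 10033 to 13836 in control livers). Of 5 tested neutrophil markers 3 were higher (7275 to 8558 in LKO and 6756 to 7853 in control livers), and Mpo and Cxcr2 were well above background on no array. The summed levels overlapped, but the mean log2 deviation of these markers from the control mean was 0.52, 1.16 and 1.70 in LKO 1, 2 and 3, against -0.32 to 0.26 in controls. Of these neutrophil markers 3 of 5 had an unadjusted p under 0.05, beside 11.2% of all genes (0 passed the adjusted threshold by limma). Endothelial markers were higher in LKO for 5 of 10, stellate cell markers for 4 of 10 and tested bile duct markers for 2 of 6. Tested lymphocyte markers were higher for 3 of 7 and tested erythroid markers for 5 of 5. Acute phase genes, which hepatocytes express in inflammation, were higher for 18 of 18, with a summed level of 455585 to 665440 in LKO and 284385 to 333731 in control livers. Of these 17 of 18 had an unadjusted p under 0.05, and 0 passed the adjusted threshold by limma. The count was 2 of 10 for hepatocyte, 2 of 13 for Kupffer cell and macrophage, 0 of 10 for endothelial and 2 of 10 for stellate markers. It was 1 of 6 for bile duct, 2 of 7 for lymphocyte and 1 of 5 for erythroid markers. The part of these lists in the transporter values was not tested.

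Abcb1b had the largest difference in the family as measured on processed signals, whereas with normexp background correction the difference of Abcd3 was larger (log2 -0.56, against 0.38 for Abcb1b). Abcb1b encodes a P-glycoprotein, a broad drug efflux pump which rodents carry in a pair of copies, Abcb1a and Abcb1b, next to each other on chromosome 5. The promoters of both copies are shown because the values of their probes ran differently between the groups. They are from RefSeq (build GRCm38.p6), from 250 bases before to 50 bases after the start of transcription, with capitals marking CCAAT boxes (CCAAT), GC boxes (GGGCGG) and TATA boxes (TATAAA) found on either strand.
Abcb1b, chr5:8797897-8798196, plus strand: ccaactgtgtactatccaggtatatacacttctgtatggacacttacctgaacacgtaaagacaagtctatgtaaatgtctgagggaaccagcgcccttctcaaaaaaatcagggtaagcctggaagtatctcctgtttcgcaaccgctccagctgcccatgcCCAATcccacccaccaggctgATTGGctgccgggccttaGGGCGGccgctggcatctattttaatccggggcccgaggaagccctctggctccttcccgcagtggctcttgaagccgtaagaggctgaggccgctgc
Abcb1a, chr5:8566841-8567140, plus strand: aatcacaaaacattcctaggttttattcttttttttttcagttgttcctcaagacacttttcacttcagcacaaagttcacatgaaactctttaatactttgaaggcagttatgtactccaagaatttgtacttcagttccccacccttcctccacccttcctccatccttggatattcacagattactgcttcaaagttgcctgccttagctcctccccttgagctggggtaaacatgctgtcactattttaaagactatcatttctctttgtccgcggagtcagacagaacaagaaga

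Counted from the start of transcription, the Abcb1b window held a CCAAT box at position -87, another on the opposite strand at -66 and a GC box at -48, whereas the Abcb1a window held none of the motifs searched. The G and C content was 55.0% for Abcb1b and 40.3% for Abcb1a. These are common letters: of 32851 mouse promoters of this length, 37.4% held a CCAAT box, 35.7% a GC box and 13.6% a TATA box. RefSeq gave a promoter for 34 members, of which 13 held a CCAAT box, 15 a GC box and 6 a TATA box. A member with several promoters was counted once if any held the motif, while the shares of all promoters are per promoter. The nuclear receptor half-site AGGTCA was found in 16.3% of all promoters and 5 members, the E-box CACGTG in 7.15% and 5 members, and the NF-kB consensus in 8.46% and 3 members. CCAAT and GC boxes did not overlap in the windows shown, and the absence of letters in a window says nothing of a factor's binding.

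Abcb1b had levels of 11.6, 10.5 and 13.0 in the LKO mice and 5.83, 5.31 and 5.29 in the controls. All LKO mice lay above all controls, and the spread within either group was small beside the gap. The level was 2.13-fold higher in LKO (95% interval 1.79 to 2.53, log2 difference 1.09 ± 0.10, SE), with limma adjusted p = 0.100, above the threshold. The probe is dim. It was well above background on all 3 LKO arrays and on 1 of the 3 control arrays, so it entered the test only through the LKO group, where it is higher. With 2 control values not well above background, the fold and its interval are loosely set: under normexp correction the difference was 1.31-fold. A second Abcb1b probe was well above background on no array and had levels of 2.34, 1.66 and 1.56 in LKO mice and 3.04, 2.03 and 1.499 in controls, which overlap.

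Abcb1a had levels of 8.93, 8.38 and 13.4 in LKO mice and 10.6, 12.8 and 13.3 in controls. The groups overlapped, and the log2 difference of -0.28 ± 0.19 (limma adjusted p = 0.642) turned to 0.02 under normexp correction. Whether either probe also picks up the other copy was not tested, since probe sequences were not used here.

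The other drug efflux pumps showed smaller differences, and none had groups apart. Abcg2, the breast cancer resistance protein of the canalicular membrane, had 2286, 1956 and 1949 in LKO mice and 2144, 2431 and 2121 in controls (log2 difference -0.11 ± 0.11, limma adjusted p = 0.732). Its rodent relative Abcg3 had 25.6, 24.2 and 34.6 in LKO and 21.0, 26.9 and 21.1 in control mice (log2 0.28 ± 0.17). Abcc5, which exports nucleotide analogues, and Abcc10, a lipophilic anion pump, had log2 differences of 0.15 ± 0.15 and 0.11 ± 0.14. A second Abcc5 probe differed in the opposite direction. Abcb5, Abcc1 and Abcc12 were well above background on no array. Of the 9 drug efflux genes 6 were tested, 4 of them with values above 0, and the group median was 0.13 on the log2 scale.

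The peroxisomal transporters Abcd3 and Abcd2 had lower values in LKO livers, and neither passed the adjusted threshold. Abcd3, also called PMP70, is the main ABC protein of the liver peroxisome membrane and brings in branched-chain and dicarboxylic acyl-CoAs and bile acid precursors. It had levels of 9997, 7443 and 7466 in the LKO mice and 11330.1, 13686 and 10906 in the controls. Every LKO mouse lay below every control, LKO 1 by the smallest margin. The level was 1.45-fold lower in LKO (log2 difference -0.54 ± 0.15, limma adjusted p = 0.300), and the log2 difference ran from -0.68 to -0.44 over the alternative settings.

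Abcd2, a carrier of very-long-chain and polyunsaturated acyl-CoAs that is better known from brain and fat, had levels of 13.5, 12.6 and 12.9 in LKO mice and 25.1, 21.3 and 15.3 in controls. The LKO mice lay close together below all controls, which were spread more widely. It was 1.55-fold lower in LKO (log2 -0.63 ± 0.18, limma adjusted p = 0.297). Under normexp correction the log2 difference was -0.26.

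LKO 2 and LKO 3, the mice with the lowest values of Abcd3 and Abcd2, are also the arrays in the second slide row, and the acute phase genes lay on average 1.55 and 2.02 above the control mean in these mice and 0.80 above it in LKO 1, on the log2 scale. The mean deviation of the 5 tested neutrophil markers, of which 3 were higher in LKO, was likewise largest in LKO 2 and LKO 3. The part of any of these in the difference was not tested. Over all tested members, the median deviation was 0.08, -0.11 and 0.04 in LKO mice and -0.02, 0.04 and -0.03 in controls. The largest of these in size was that of LKO 2.

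Of 14 other peroxisomal genes, all tested, 10 had lower and 4 had higher values in LKO (28.6% higher, beside 50.8% of all genes), with a median log2 difference of -0.13, beside 0.00 for all genes. None passed the adjusted threshold by limma, and 2 of 14 (14.3%, beside 11.2% of all genes) had an unadjusted p under 0.05. Slc25a17, the peroxisomal carrier of CoA and other cofactors, had 1116, 1100.4 and 1077 in LKO mice and 1363, 1382 and 1253 in controls (log2 -0.28 ± 0.08, limma adjusted p = 0.304). All LKO mice were below all controls. Acaa1a, a thiolase of the last step of peroxisomal β-oxidation, ran the other way, with a log2 difference of 0.27 ± 0.10. Over the alternative settings this difference ran from 0.056 to 0.35.

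**Figure D2:**
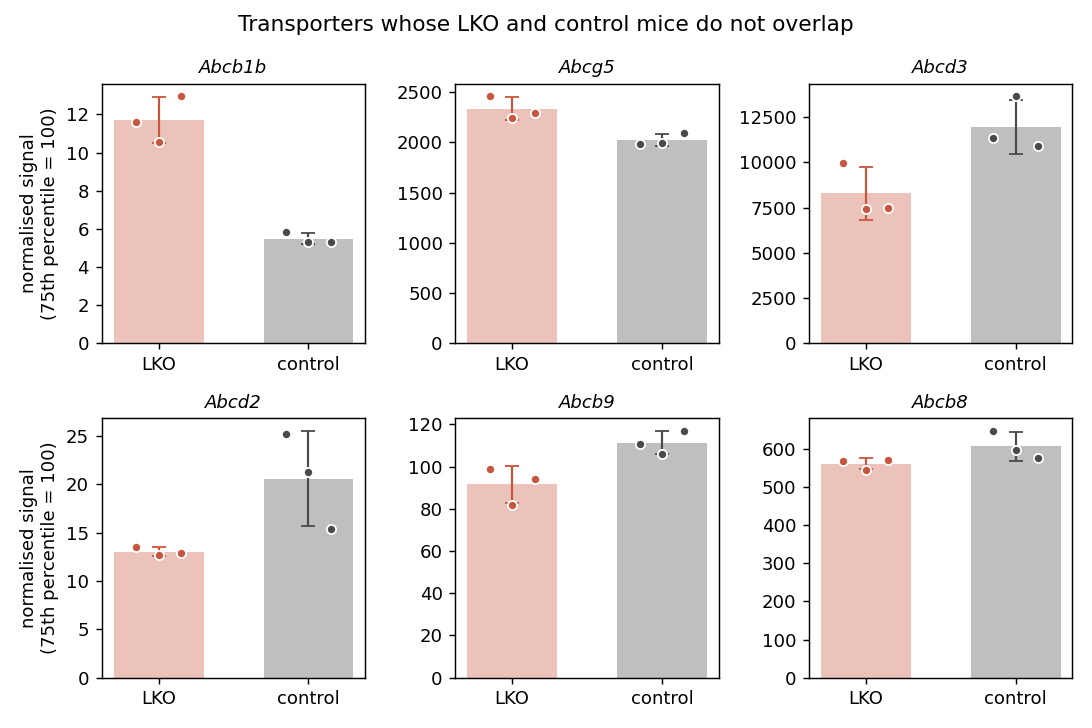
Normalised level in each mouse (75th percentile of each array = 100) of the 6 ABC transporters whose LKO and control mice do not overlap. Bars are means, lines the SD and points the mice (n = 3 per group), with a separate axis per gene. Abcb1b and Abcg5 are higher in every LKO mouse, while Abcd3, Abcd2, Abcb9 and Abcb8 are lower in every LKO mouse.

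Among the sterol transporters, Abcg5 and Abcg8 form the heterodimer that pumps cholesterol and plant sterols into bile. Their genes lie head to head on chromosome 17. The promoter window of Abcg8 is shown because it shares 209 bases with that of Abcg5 on the opposite strand, so a single stretch of DNA lies before both genes. RefSeq gives Abcg8 2 start sites, and the window shown is that of the first. The window of the second, chr17:84676052-84676351, does not share this stretch and held none of the motifs searched.
Abcg8, chr17:84682871-84683170, plus strand: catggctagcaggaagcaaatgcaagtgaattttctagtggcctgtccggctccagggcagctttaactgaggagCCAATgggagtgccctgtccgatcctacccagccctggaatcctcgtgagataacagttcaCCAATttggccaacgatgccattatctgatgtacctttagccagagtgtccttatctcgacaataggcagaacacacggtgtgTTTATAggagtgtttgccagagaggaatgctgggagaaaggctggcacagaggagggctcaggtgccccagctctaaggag
Capitals mark CCAAT boxes at positions -175 and -114 from the Abcg8 start and a TATA box on the opposite strand at -31, which lies at -84 in the window of Abcg5 (RefSeq, GRCm38.p6).

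Abcg5 had levels of 2464, 2247 and 2296 in LKO mice and 1984, 1998 and 2090.2 in controls. The groups did not overlap, but the level was only 1.15-fold higher in LKO (log2 0.21 ± 0.08, limma adjusted p = 0.427). Abcg8 had 939, 869 and 808 in LKO mice and 784, 907 and 865 in controls, which overlap. Its log2 difference of 0.03 ± 0.10 (limma adjusted p = 0.932) turned to -0.0071 under median scaling.

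Abca1, which hands cholesterol and phospholipid to apolipoprotein A-I to form HDL, had 617, 529 and 475 in LKO mice and 633, 515 and 579.6 in controls. The groups overlapped (log2 -0.09 ± 0.13, limma adjusted p = 0.833), and its second probe differed by 0.01. Abcg1, which adds cholesterol to existing HDL, had 176, 179.5 and 204 in LKO mice and 144, 190.3 and 139 in controls. Control 2 lay within the LKO range (log2 0.25 ± 0.14, limma adjusted p = 0.571).

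The Abca8a, Abca8b, Abca9, Abca6 and Abca5 genes sit side by side on chromosome 11 and encode related lipid transporters whose substrates are less well known. Abca8a had 317, 206 and 227 in LKO mice and 315, 282 and 343 in controls. LKO 1 lay among the controls and the other LKO mice below them (log2 -0.35 ± 0.17, limma adjusted p = 0.524), and its second probe gave -0.41. The log2 differences were -0.11 for Abca8b and -0.18 for Abca5. Abca6 differed by 0.03 and Abca9 by -0.05, signs that turned under normexp correction (-0.0080 for Abca6 and 0.039 for Abca9). A second Abca6 probe was higher in every LKO mouse, at 148, 148 and 160 against 122, 139.6 and 125 in controls. Abca9 was well above background on 2 of 3 control arrays.

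Abca2, an endolysosomal lipid transporter, and Abca7, a phospholipid exporter linked to phagocytosis, differed by -0.06 and 0.10 on the log2 scale. Abcg4, a sterol exporter of the brain, was well above background on no array. In all, 11 of 12 sterol transporters were tested, 5 with differences above 0, and their median was -0.05.

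All 5 bile transporters were tested, and each differed by less than 0.2 on the log2 scale, with overlapping groups. Abcb11, the bile salt export pump, had levels of 9911, 8437 and 8066 in LKO mice and 9106, 9332 and 9791 in controls. The ratio of LKO to control was 0.932 with a 95% interval of 0.786 to 1.11 (log2 -0.10 ± 0.10, limma adjusted p = 0.761). Abcb4, which flips phosphatidylcholine into bile, had 4722, 4570.0 and 4309.5 in LKO mice and 4786, 4276 and 3519.6 in controls (log2 0.12 ± 0.13). Abcc2, which secretes bilirubin glucuronide and other conjugates, had 813, 685 and 714 in LKO and 698, 689.8 and 643 in control mice (log2 0.12 ± 0.10, limma adjusted p = 0.690).

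Abcc3 and Abcc4 export bile acids and conjugates at the blood side. Abcc3 had 1059.8, 783 and 1045 in LKO mice and 1316, 833 and 1041 in controls (log2 -0.13 ± 0.20, limma adjusted p = 0.848). A dimmer second probe of Abcc3 had 34.6, 24.5 and 27.6 in LKO mice and 41.9, 35.9 and 41.0 in controls, where LKO mice were below all controls (log2 -0.47). Abcc4 had 31.5, 24.1 and 25.6 in LKO and 17.4, 31.9 and 24.3 in control mice, with the controls reaching both lower and higher than any LKO mouse (log2 0.17 ± 0.23, limma adjusted p = 0.823).

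**Figure D3:**
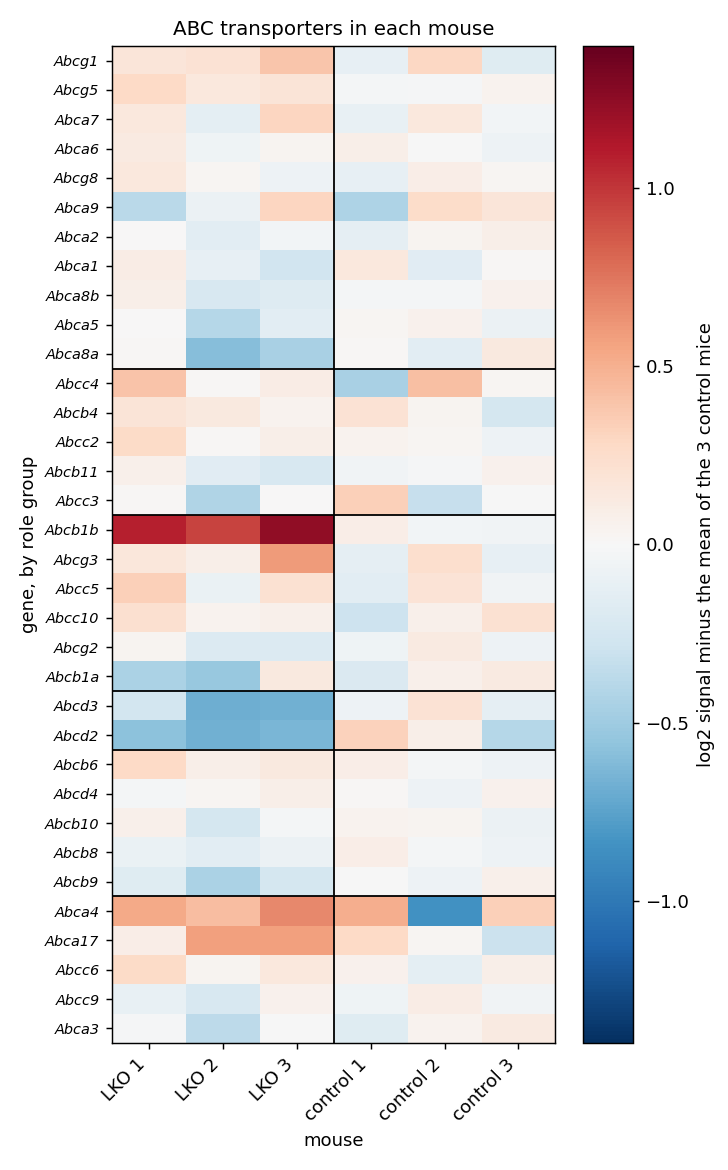
The tested ABC transporters reported here in each mouse, as log2 signal minus the mean of the 3 control mice, with rows ordered by role group. Red is higher and blue lower than the control mean. Abcb1b is red in all 3 LKO mice, and Abcd3 and Abcd2 are blue in all 3, most in LKO 2.

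The mitochondrial and lysosomal transporters were all tested, 2 of 6 with differences above 0 and a median of -0.09 on the log2 scale. Abcb9, a lysosomal peptide transporter, had 98.7, 81.8 and 94.1 in LKO mice and 111, 106 and 117 in controls. LKO mice lay below all controls (1.22-fold lower, log2 -0.29 ± 0.10, limma adjusted p = 0.383). Abcb8, a mitochondrial inner membrane transporter picked out here after its values were seen, had 569, 545 and 571 in LKO and 648, 597 and 576 in control mice. Its groups were just apart (log2 -0.11 ± 0.08, limma adjusted p = 0.673), and a second probe, with 91.0, 90.9 and 86.0 in LKO and 97.5, 99.9 and 94.5 in control mice, was also lower in each LKO mouse.

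Abcb6, a porphyrin transporter, had a log2 difference of 0.17 ± 0.09, and Abcb10, which serves haem synthesis, of -0.07 ± 0.11, both with overlapping groups. Abcd4, the lysosomal vitamin B12 transporter that shares a subfamily with the peroxisomal proteins, differed by 0.02 ± 0.08, with -0.015 under median scaling.

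Among the 11 other members 5 were tested. Abca17 had 351, 489 and 488 in LKO mice and 399, 334 and 266 in controls (log2 0.41 ± 0.19, limma adjusted p = 0.496), with LKO 1 among the controls. A second Abca17 probe was well above background on no array. Its levels were 1.15, 1.34 and 1.23 in LKO mice and 1.82, 1.01 and 1.21 in controls. Abca4, the retinoid transporter of photoreceptors, was dim, with 8.61, 8.04 and 9.50 in LKO and 8.48, 3.32 and 7.53 in control mice, of which 2 were well above background (log2 0.54 ± 0.34, limma adjusted p = 0.605). The Abca4 probe entered the test only through the LKO group, where it is higher, and without control 2 its log2 difference was 0.12. A second Abca4 probe was well above background on no array. Abca3, the surfactant lipid transporter, differed by -0.13 ± 0.13. Abcc6, a liver transporter mutated in pseudoxanthoma elasticum, differed by 0.15 ± 0.10 with a second probe of opposite direction, and Abcc9, a subunit of ATP-sensitive potassium channels, by -0.09 ± 0.10.

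In total 10 members could not be tested, and 8 of these were well above background on no array: Abca12, Abca13, Abca14, Abca15, Abcb5, Abcc1, Abcc12 and Abcg4. The other members in this class were Abca16, well above background on 1 LKO array, and Abcc8, a potassium channel subunit of beta cells, well above it on 1 control array. For these genes a difference was not detectable, which is not a sign of absence. Of the 36 tested members, 33 were well above background on all 6 arrays.

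In genome order, 15 of the 46 members lie next to another member, in 5 runs among protein-coding genes. The plot of neighbouring genes sets their differences side by side. On chromosome 5, Abcb1b had a log2 difference of 1.09, between -0.28 for Abcb1a (0.02 under normexp correction) and 0.12 for Abcb4. On chromosome 17, Abca17 had 0.41 and the adjacent Abca3 -0.13, while Abcg5 had 0.21 and Abcg8 0.03 (-0.0071 under median scaling). The differences between neighbours were not tested. The run of Abca14, Abca15 and Abca16 on chromosome 7 held no tested gene.

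**Figure D4:**
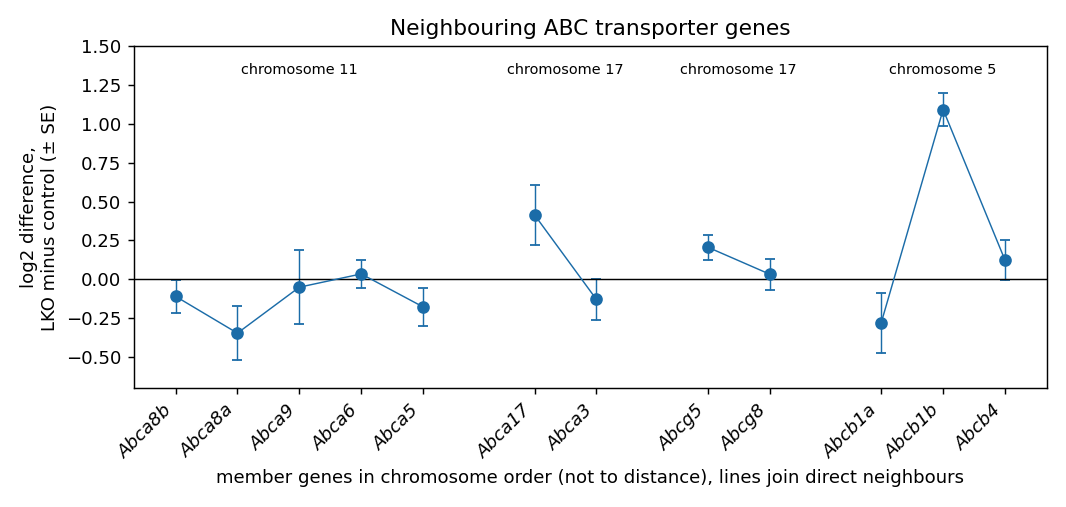
Log2 difference, LKO minus control, of ABC transporter genes that lie next to each other, in chromosome order and not to distance. Points are limma estimates, bars their SE (n = 3 mice per group), and lines join direct neighbours. Abcb1b at 1.09 stands above both of its neighbours on chromosome 5, and the 5 genes on chromosome 11 lie between -0.35 and 0.03, where the positive sign of Abca6 turns under median scaling.

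The genes known to regulate or assist these transporters were compared as well. Of 18 regulators, all tested, none passed the adjusted threshold by limma and 3 (16.7%, beside 11.2% of all genes) had an unadjusted p under 0.05. Srebf2, the regulator of cholesterol synthesis, had 30.4, 33.2 and 28.2 in LKO mice and 46.4, 36.6 and 43.8 in controls (log2 -0.46 ± 0.12, limma adjusted p = 0.268). Its groups did not overlap. Nr1i2, the drug-sensing receptor PXR, which is known to induce drug efflux pumps, had 552, 498 and 642 in LKO and 481, 474 and 425 in control mice (log2 0.29 ± 0.12, limma adjusted p = 0.437). Rxra, the partner of these receptors, was higher in each LKO mouse, at 12405, 11224 and 11812 against 9017, 9997 and 10124 in controls (log2 0.28 ± 0.09, limma adjusted p = 0.341).

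Of 15 partners of sterol efflux 14 were tested, 11 with differences above 0 (78.6%, beside 50.8% of all genes), and again none passed the adjusted threshold. Pltp, the phospholipid transfer protein that remodels HDL, had 232, 210.3 and 307 in LKO mice and 957, 618 and 402 in controls. All LKO mice lay below all controls, which were widely spread (2.51-fold lower, log2 -1.33 ± 0.31, limma adjusted p = 0.251). Lcat, which esterifies HDL cholesterol, and Scarb1, the HDL receptor, had log2 differences of 0.30 ± 0.11 and 0.26 ± 0.11. Of 18 uptake carriers and bile partners 17 were tested. Slc9a3r1, a scaffold of canalicular membrane proteins, had a log2 difference of 0.24 ± 0.08 and was higher in each LKO mouse.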

How the data were processed

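Liver RNA of 3 LKO and 3 control mice was measured on one-colour Agilent arrays, 1 mouse each, from 0.1 µg of RNA labelled with Cy3, per the labels' protocols. The scanner software was Agilent Feature Extraction 11.5.1.1, per the submitters' processing notes. Per the file headers, gProcessedSignal is an intensity after background correction by that software, while the median spot and local background columns are uncorrected intensities. Flags for outlier spots, saturation and a signal well above background are other values in the deposited files. The authors' deposited value table holds linear intensities, equal to the processed signal times 1 constant per array (2.08 to 2.48, how chosen not given in the sources used here), with 0 columns without a sample. Its column medians were 63.7, 59.1 and 62.2 in LKO and 55.3, 62.9 and 61.5 in the controls.

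Probes were named by matching accessions without versions to a RefSeq table of GRCm38.p6. Of 56605 probes 32994 (58.3%) had 1 symbol, 0 had several and 23611 had none. Processed signals were put on a log2 scale relative to each array's 75th percentile, which was 265 to 298 units. Control spots and 64 to 111 outlier spots per array were left out. Replicate spots were averaged per probe, and the brightest probe over the 6 arrays stood for its gene. Of 8 tested members with several probes above background, 3 (Abca1, Abcc5 and Abcc6) had probes that differed in direction. Testing required the probe to be well above background throughout 1 group or both, and a minimum of 2 values in each. The test was limma 3.58.1 (lmFit, eBayes; R 4.3.3), two-sided, adjusted by Benjamini-Hochberg over all 14170 genes, with a threshold of 0.05. The steps were tested on simulated data. Precision is limited by having 3 arrays per group.

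The members, role groups, partner lists and marker lists were chosen with earlier results of these data known. Some genes of these groups are not reported here. By the naming rule, named genes are the targeted gene and all tested members of the sterol, bile, drug efflux and peroxisomal groups. In other groups and lists they are those with an unadjusted p under 0.05 or else the 2 with the smallest p. Abca3, Abcb6, Abcb8, Abcb10, Abcc6, Abcc9 and Abcd4 are named beyond this rule. The planned normexp correction on mean signals used the median signals that the files hold. As alternatives, the arrays were scaled by quantiles or by their median, corrected by normexp (offset 50) or taken from the authors' table, and other settings were other filters, the mean of probes, eBayes with trend and robust settings, a replicate block and leaving out each mouse. Figures used Python 3.11.15 with matplotlib 3.10.9.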

Additional observations from a re-analysis of the deposited data

How the results depend on the processing

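The absence of ABC transporters past the adjusted threshold held under all 15 alternatives, and Elovl6 passed under all 15 (log2 -6.69 to -5.61). With the replicate block, 0 ABC transporters and 3 genes in all passed, and 5 transporters had an unadjusted p under 0.05. The replicate numbers were not taken as pairs: deviations of same-numbered LKO and control arrays correlated at 0.045, -0.055 and -0.070 over genes, and 0 of 3 LKO arrays correlated best with its own number. The count of all genes past the threshold was 2, against 16 with normexp, 13 with trend and robust settings, 1 with no filter, 1 with the filter on all 6 arrays, and 1 to 9 when a mouse was left out, where 9 came without LKO replicate 1. Transporters with an unadjusted p under 0.05 numbered 3 to 6 against 5, with 3 without control replicate 3. Abcb1b stayed higher in LKO in all 14 alternatives that gave it a value (log2 0.38 to 1.16, limma adjusted p 0.0615 to 0.301). The filter on all 6 arrays gave it no value. All 14 used the same probe, which entered the main test only through the LKO group, so their shared direction adds no separate support. Abcd3 and Abcd2 stayed lower in all 15 alternatives, at adjusted p 0.124 to 0.594 and 0.270 to 0.589 by limma.

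Of 732 alternative values for 49 genes 20 changed sign, in 9 genes whose reported differences lay between -0.28 (Abcb1a) and 0.17 (Abcc4). Under median scaling these were Abca6 (-0.0052), Abcd4 (-0.015) and Abcg8 (-0.0071), and under normexp Abca6 (-0.0080), Abca9 (0.039) and Abcb1a (0.017). Leaving out 1 mouse gave ranges of -0.013 to 0.084 for Abca6, -0.26 to 0.11 for Abca9, -0.14 to 0.019 for Abcb10, -0.029 to 0.22 for Abcc10, -0.30 to 0.034 for Abcc3, -0.053 to 0.39 for Abcc4, -0.013 to 0.053 for Abcd4 and -0.026 to 0.086 for Abcg8. The cause of these changes was not tested. The median of the transporters ran from -0.094 to 0.015, the highest without LKO replicate 2. The differences of the dim probes of Abcb1b, Abcd2 and Abca4 were smaller under normexp (0.38, -0.26 and 0.12), and 10 members were too near background to test.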

Other observations

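ABC proteins whose symbols do not begin with Abca, Abcb, Abcc, Abcd or Abcg were also measured. Of 7 such genes, all tested, 4 had higher values in LKO and none passed the adjusted threshold or had an unadjusted p under 0.05 by limma. Abcf1, which acts in translation initiation, had levels of 803, 829 and 781 in LKO mice and 759.8, 729 and 668 in controls (log2 0.16 ± 0.09). Tap2, a subunit of the transporter that loads peptides onto MHC class I, had 835, 822 and 847 in LKO mice and 774, 716 and 778 in controls (log2 0.14 ± 0.08). For both genes (2 of 7, 28.6%) every LKO mouse lay above every control, beside 8.11% of all genes.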
